A study of Mus musculus with 15 samples.

Results

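Receptor tyrosine kinases (RTKs) outside the ErbB family were followed as 10 genes, *Met*, *Axl*, *Pdgfra*, *Pdgfrb*, *Fgfr1*, *Fgfr2*, *Epha2*, *Ddr1*, *Mst1r* and *Ephb4*. They were taken by gene name from the 3 tables of normalized counts, and all 10 of 10 were found among the 55291 genes that each table lists. The RNA came from HY19636, a murine pancreatic ductal adenocarcinoma (PDAC) line isolated from a tumor of a C57BL/6 mouse with Ptf1a-Cre, which acts in the pancreas, and p53 L/+. Every sample carries the genotype of this line. HY19636 is a single line, so each result holds for that line only. Cells were grown in DMEM with serum as 3 control cultures (CNT), 3 cultures with DON, a glutamine (Gln) antagonist, at 25 µM for 24 h, and 3 cultures without Gln for 24 h. The same line was injected orthotopically into the pancreas of female B6J mice of 8 to 10 weeks, which keep their own stromal and immune cells. Of these tumors, 3 came from mice on vehicle (VEH) and 3 from mice on DRP-104, which is converted to DON in the body and was injected daily (3 mg per kg). Dosing ran for 5 days with a break of 2 days, in 2 such cycles, and tumors were taken on day 21. No label says that the 3 cultures of a group were grown separately, so p-values in cells measure the spread between these samples, which may be technical.

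An RTK is a membrane protein that binds a ligand outside the cell and phosphorylates tyrosines inside it. The phosphorylated tail recruits adaptors that feed the MAPK and PI3K pathways, which is why RTKs are studied as a way around metabolic inhibitors in PDAC. *Met* encodes the receptor of hepatocyte growth factor and *Mst1r* (RON) that of macrophage-stimulating protein. *Axl* encodes a TAM receptor bound by Gas6, and *Epha2* and *Ephb4* encode Eph receptors, whose ephrin ligands sit on neighboring cells. *Ddr1* encodes a collagen receptor, and the remaining 4 genes encode receptors of PDGF and FGF, which in tumors are best known from fibroblasts and mural cells, with FGFR2 also known from epithelium. These libraries measure mRNA, not receptor protein or its phosphorylation.

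The reads counted in genes summed to 25.2 to 48.2 M in the cultures and 16.3 to 20.7 M in the tumors. Low counts were more often even in the cultures (69.6% to 72.7% of genes) than in the tumors (41.9% to 46.5%). Whether a read is the same unit in both sets was not tested, so these sums give no relative depth. The epithelial marker list (10 genes) summed to 12590 to 15010 RPM (reads scaled to a common library total) in control cells and 6491 to 9604 RPM in the tumors, with 1 of 10 markers at 3 reads or fewer in every culture group. Single markers were mixed, with 4 of 9 tested higher and 5 lower in vehicle tumors than in control cells (limma, adjusted p under 0.05). The fibroblast list was at 0.0 to 0.922 RPM in the cultures, with 9 of 10 markers at 3 reads or fewer in all 3 libraries of each culture group. DRP-104 tumor 3 stood apart from the other tumors: it had the highest value of all 10 of 10 T cell markers and the lowest value of 7 of 10 fibroblast markers. The DRP-104 log2 fold change of each receptor is therefore also given without it. Medians and list counts that involve DRP-104 are given with it only.

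For the receptors with the largest differences between the culture treatments and a RefSeq promoter entry for a single start site (*Epha2*, *Pdgfra* and *Met*), and for 2 that differed little between them (*Axl* and *Ephb4*), the promoter window is shown (8 of 10 receptors matched an entry by symbol). Each runs 5′ to 3′ on the strand of the gene from 250 bases before to 50 after the RefSeq start (build GRCm38.p6). The windows lie at chr4:141300971-141301270 (+) for *Epha2*, chr5:75152001-75152300 (+) for *Pdgfra* and chr6:17463707-17464006 (+) for *Met*. Those of *Axl* and *Ephb4* lie at chr7:25788684-25788983 (-) and chr5:137349859-137350158 (+). Capitals mark matches, on either strand, to a cAMP response element (CRE, TGACGTCA), an AP-1 site (TGANTCA), an E-box (CACGTG) or an ATF4 element (TGATGNAA).
Epha2: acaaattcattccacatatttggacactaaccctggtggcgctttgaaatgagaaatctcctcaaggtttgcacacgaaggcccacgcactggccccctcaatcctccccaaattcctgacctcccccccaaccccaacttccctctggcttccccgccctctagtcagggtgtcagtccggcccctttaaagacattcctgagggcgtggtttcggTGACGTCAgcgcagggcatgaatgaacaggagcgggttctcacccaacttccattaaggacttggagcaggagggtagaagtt
Pdgfra: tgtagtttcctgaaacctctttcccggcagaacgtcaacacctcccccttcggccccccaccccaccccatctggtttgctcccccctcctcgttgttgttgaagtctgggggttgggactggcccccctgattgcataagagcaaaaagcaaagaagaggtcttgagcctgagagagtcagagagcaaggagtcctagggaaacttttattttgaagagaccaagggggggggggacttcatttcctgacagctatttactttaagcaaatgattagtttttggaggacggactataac
Met: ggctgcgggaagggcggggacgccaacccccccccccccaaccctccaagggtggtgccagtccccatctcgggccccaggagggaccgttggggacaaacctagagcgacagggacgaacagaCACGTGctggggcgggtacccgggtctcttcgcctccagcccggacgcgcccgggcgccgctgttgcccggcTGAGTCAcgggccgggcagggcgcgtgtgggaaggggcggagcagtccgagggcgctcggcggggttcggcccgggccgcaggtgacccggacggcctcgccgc
Axl: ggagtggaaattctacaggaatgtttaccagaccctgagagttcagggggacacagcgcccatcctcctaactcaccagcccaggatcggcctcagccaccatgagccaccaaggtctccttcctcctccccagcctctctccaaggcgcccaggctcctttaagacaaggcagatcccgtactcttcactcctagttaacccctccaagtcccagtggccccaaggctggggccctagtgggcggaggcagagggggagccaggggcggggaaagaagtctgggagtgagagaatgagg
Ephb4: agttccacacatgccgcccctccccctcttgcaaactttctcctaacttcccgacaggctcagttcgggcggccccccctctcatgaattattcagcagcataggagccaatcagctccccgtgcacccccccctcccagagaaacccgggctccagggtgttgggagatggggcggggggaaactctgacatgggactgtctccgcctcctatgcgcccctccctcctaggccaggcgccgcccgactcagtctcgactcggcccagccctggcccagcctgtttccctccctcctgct
The *Epha2* window holds a CRE from its base 218, which 1.79% of the 32851 RefSeq promoter windows of that length hold. The *Met* window holds an E-box from base 125 (in 7.15% of windows) and an AP-1 match from base 197 (in 7.81%). No match to the ATF4 element (in 3.97% of windows) and no overlapping matches were found in these 5 windows, and no match to any of the 4 motifs in those of *Pdgfra*, *Axl* and *Ephb4*. The *Met* window is also the most GC-rich of the 5, with 75.7% GC and 34 CpG dinucleotides, against 51.0% and 5 for *Pdgfra* and medians of 52.7% and 7 over all windows. Such matches describe the sequence and show no binding.

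In control cells the receptors detected spanned 0.521 to 114 RPKM, which is RPM per kilobase of gene. *Axl* (114 ± 3.84 RPKM, SD, n = 3) and *Epha2* (105 ± 3.13 RPKM) led, followed by *Ddr1* (48.1 ± 5.11 RPKM), *Ephb4* (33.3 ± 1.87 RPKM), *Met* (11.3 ± 2.28 RPKM) and *Mst1r* (7.82 ± 0.152 RPKM). The PDGF and FGF receptors came last, with *Pdgfra* at 2.49 ± 0.280 RPKM and *Fgfr1* at 0.521 ± 0.141 RPKM. The ranges over the 3 libraries did not overlap between any neighbors in this order. *Fgfr2* had 0 reads in each of the 9 cultures, which allows up to 3 reads per library, or 0.0623 to 0.119 RPM. *Pdgfrb* had 0 reads in 8 cultures and 4 in Gln-free culture 1. Neither could be tested in cells, so 8 of the 10 receptors passed the filter of a mean of at least 10 normalized counts there.

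DON lowered 7 of the 8 receptors tested in cells and raised 1, where 68.1% of all genes tested passed the threshold (limma on log2(normalized count + 1), adjusted p under 0.05), 34.7% as lower and 33.3% as higher. Without Gln, 3 of 8 were higher and 4 lower, where 69.4% of all genes passed, 34.5% as higher and 34.9% as lower. With backgrounds this high, a call in itself says little, and the sizes and directions below carry more. The median log2 fold change of the 8 receptors was -1.08 after DON (all genes tested 0.02, or 0.13 under quantile normalization) and -0.41 without Gln (all genes 0.01). The epithelial marker list moved with both treatments, with 8 of 9 tested markers lower in each and sums of 3938 to 4168 RPM after DON and 5404 to 6005 RPM without Gln, and its part in the receptor values was not tested. Both comparisons share the 3 control cultures, so DON and Gln-free cells were also compared directly, with all 9 cultures scaled together. In that test 8 of 8 receptors passed, 4 as higher and 4 as lower after DON, where 63.3% of all genes did, 31.0% as higher and 32.3% as lower. At a threshold of 0.01, or without Gln-free culture 2, 5 of the 8 differed between the treatments, the calls lost being those of *Axl*, *Ddr1* and *Ephb4*. That of *Axl* was also lost without DON culture 2 (adjusted p = 0.0871, limma). Those of *Ddr1* and *Ephb4* were both lost without DON culture 3 or Gln-free culture 1, *Ddr1* also without DON culture 1 and *Ephb4* without DON culture 2 (highest adjusted p 0.147, limma). The largest differences were in *Pdgfra*, *Fgfr1* and *Epha2*. In the next paragraphs the value of each culture is a normalized count on the shared scale of the 9 cultures, and fold changes against control come from each treatment's own table.

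**Figure D1:**
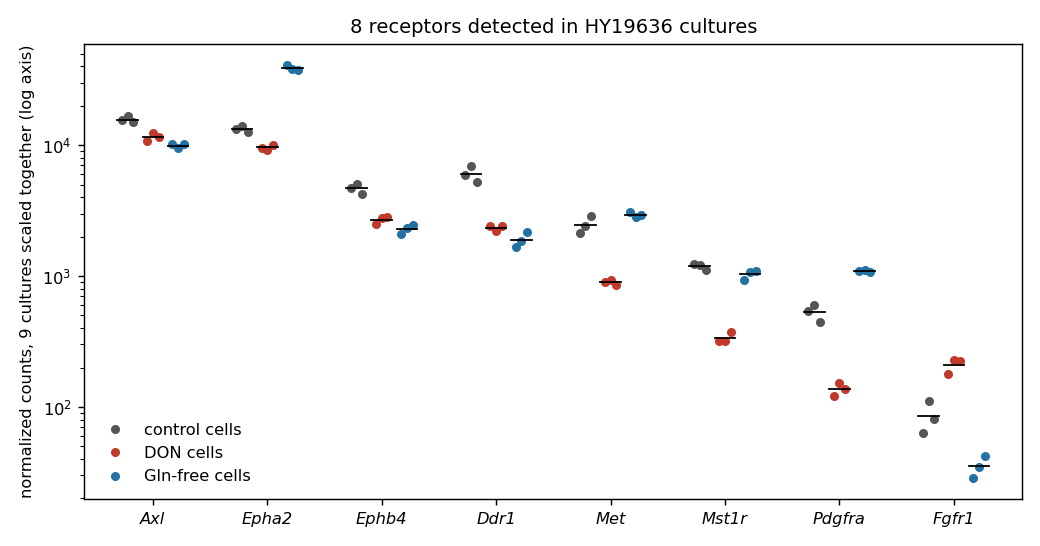
Normalized counts of the 8 receptors detected in culture (log axis, 9 cultures scaled together), with 1 point per culture and a line at the mean of each group of 3. The 3 Gln-free points of *Epha2* lie at 37487 or above, while every control and DON point lies at 14103 or below, and *Pdgfra* has its DON points below and its Gln-free points above the controls.

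*Epha2* showed the largest rise of any receptor without Gln. EphA2 is an ephrin-A receptor that is often high in carcinomas. The gene (ENSMUSG00000006445) lies on chromosome 4 from 141301240 to 141329384 in GRCm38 coordinates. It had 13257, 14103 and 12618 normalized counts in control cells, 9554, 9229 and 10120 after DON and 41260, 38411 and 37487 without Gln. The 3 groups did not overlap. The log2 fold change was 1.57 without Gln (standard error 0.083, adjusted p = 5.75e-09, limma) and -0.48 after DON (standard error 0.088, adjusted p = 0.000259, limma). DON and Gln-free cells differed by -2.02 on the log2 scale (95% interval -2.18 to -1.86, adjusted p = 2.48e-11, limma). Without Gln, *Epha2* made up 68.8% to 71.9% of the summed RPKM of the 10 receptors, against 32.2% to 32.9% in control cells. Its share in DON cells was 35.0% to 37.9%. Quantile normalization kept the direction after DON but brought the change to -0.26.

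*Ephb4* (ENSMUSG00000029710, chromosome 5 from 137350109 to 137378669), the ephrin-B2 receptor, fell under both treatments. It had 4682, 5096 and 4255 normalized counts in control cells, 2503, 2760 and 2847 after DON and 2114, 2311 and 2451 without Gln. Both treated groups lay below every control. The log2 fold change was -0.80 after DON (standard error 0.096, adjusted p = 5.2e-06, limma) and -1.005 without Gln (standard error 0.093, adjusted p = 8.26e-07, limma). The direct difference between the treatments was 0.24 (95% interval 0.05 to 0.43). *Zan*, which overlaps it on the opposite strand, had 122 to 331 reads summed over the 3 libraries of each culture group, and the use of strand in counting is not given in the sources used here.

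*Axl* (ENSMUSG00000002602, chromosome 7 from 25757273 to 25788705), the TAM receptor and the most abundant of the 10 in control cells, also fell under both treatments, by less. Control cells had 15462, 16581 and 14996 normalized counts, DON cells 10850.5, 12367 and 11558, and Gln-free cells 10136, 9578 and 10126. No treated culture reached the lowest control. The log2 fold change was -0.45 after DON (standard error 0.090, adjusted p = 0.000544, limma) and -0.63 without Gln (standard error 0.078, adjusted p = 1.14e-05, limma). Quantile normalization brought the change after DON to -0.26 with the call kept. The direct difference between the treatments was 0.22 (95% interval 0.06 to 0.38, adjusted p = 0.0178, limma). *Axl* kept the first rank after DON (92.2 ± 5.95 RPKM), where its range overlapped that of *Epha2* (83.6 ± 4.50 RPKM). Without Gln it came second to *Epha2* (78.9 ± 2.82 RPKM). The genes whose log2(RPM + 1) followed *Axl* most closely over the 9 cultures, among 10431 with a mean of at least 100, were *Tead3* (Pearson r = 0.993), a transcription factor of the Hippo pathway, *Hnrnpa0* (r = 0.990), an RNA-binding protein, and *Odf2* (r = 0.982), a centriole protein. Of the other receptors, *Ephb4* (r = 0.959) and *Ddr1* (r = 0.926) were closest, and *Epha2* had an r of -0.70. These 9 libraries form 3 groups, and the values are a description.

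*Ddr1* (ENSMUSG00000003534, chromosome 17 from 35681567 to 35704621), the collagen receptor of epithelial cells, had the largest drop without Gln. It went from 5922, 6921 and 5266 normalized counts in control cells to 2424, 2201 and 2422 after DON and 1656, 1866 and 2168 without Gln. Every treated culture lay below every control. The log2 fold change was -1.36 after DON (standard error 0.106, adjusted p = 5.94e-08, limma) and -1.65 without Gln (standard error 0.117, adjusted p = 7.76e-08, limma). The treatments differed by 0.32 (95% interval 0.08 to 0.55, adjusted p = 0.0195, limma). 

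The HGF receptor *Met* and its relative *Mst1r* shared a drop after DON that Gln withdrawal did not give. *Met* (ENSMUSG00000009376, chromosome 6 from 17463800 to 17573980) had 2122, 2397 and 2896 normalized counts in control cells, 900.1, 935 and 852 after DON and 3069, 2803 and 2946 without Gln. DON cultures lay well below the other 6, while the Gln-free and control cultures overlapped. Its log2 fold change was -1.46 after DON (standard error 0.114, adjusted p = 6.09e-08, limma) and 0.28 without Gln (standard error 0.111, adjusted p = 0.0365, limma). The rise without Gln was lost in 8 of 14 alternatives, among them edgeR on the recovered reads (adjusted p = 0.057) and quantile normalization (limma, adjusted p = 0.0775). It was also lost when any culture other than control culture 3 was left out, with the highest adjusted p (0.176) without control culture 1.

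*Mst1r* (ENSMUSG00000032584, chromosome 9 from 107906889 to 107920383) had 1240, 1222 and 1110 normalized counts in control cells, 320.0, 320.4 and 371 after DON and 928, 1070 and 1099 without Gln. The DON cultures stood apart, and the Gln-free cultures lay just below the lowest control. The log2 fold change was -1.83 after DON (standard error 0.119, adjusted p = 9.07e-09, limma). Gln withdrawal gave -0.19 (95% interval -0.41 to 0.04, adjusted p = 0.124, limma), and this passed without control culture 3 (-0.23, adjusted p = 0.0409). The direct differences were -1.71 for *Met* (95% interval -1.93 to -1.50, adjusted p = 2.08e-09, limma) and -1.61 for *Mst1r* (95% interval -1.84 to -1.38, adjusted p = 5.79e-09, limma).

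*Pdgfra* (ENSMUSG00000029231, chromosome 5 from 75152291 to 75198204), the PDGF receptor alpha gene, changed in opposite directions under the 2 treatments and had the largest direct difference. Control cells had 540, 606 and 449 normalized counts, DON cells 121, 152 and 137, and Gln-free cells 1091, 1115 and 1072. The 3 groups were far apart relative to their spread. Its log2 fold change was -1.96 after DON (standard error 0.164, adjusted p = 1.29e-07, limma) and 1.07 without Gln (standard error 0.119, adjusted p = 4.4e-06, limma). The direct difference was -3.00 (95% interval -3.28 to -2.71, adjusted p = 1.05e-10, limma).

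*Fgfr1* (ENSMUSG00000031565, chromosome 8 from 25513654 to 25575714), an FGF receptor gene, moved the other way and was low throughout. It had 63.5, 111 and 80.6 normalized counts in control cells, 178, 227 and 226 after DON and 28.5, 34.5 and 42.5 without Gln. Each DON culture lay above each control and each Gln-free culture below. The log2 fold change was 1.32 after DON (standard error 0.226, adjusted p = 0.000142, limma) and -1.21 without Gln (standard error 0.289, adjusted p = 0.00231, limma). The direct difference was 2.56 (95% interval 2.03 to 3.08, adjusted p = 2.98e-07, limma). These values rest on only 27 to 274 reads per culture. For each receptor whose treated group did not overlap its controls, the two-sided exact permutation p was 0.1, the smallest that 3 against 3 allow.

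**Figure D2:**
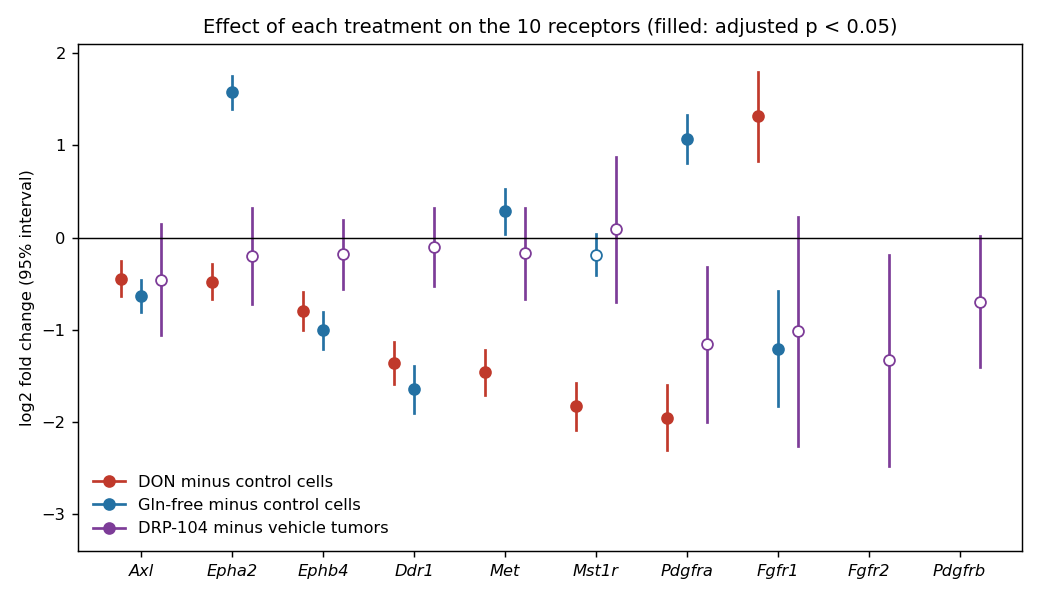
Log2 fold change of each receptor with its 95% interval (limma) for DON against control cells, Gln-free against control cells and DRP-104 against vehicle tumors, where filled points passed an adjusted p of 0.05. *Epha2* (-0.48 and 1.57), *Pdgfra* (-1.96 and 1.07) and *Fgfr1* (1.32 and -1.21) lie on opposite sides of 0 in the 2 culture comparisons, and no DRP-104 point is filled.

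Ligands of these receptors were mostly lower after DON. Of 23 listed, 18 could be tested after DON, of which 2 were higher and 14 lower (median log2 fold change -1.42, all genes 0.02). Of all genes tested, 33.3% were higher and 34.7% lower. Without Gln, 6 of 18 were higher and 8 lower (median -0.28, all genes 0.01), where 34.5% of all genes were higher and 34.9% lower. *Fgf1*, an FGF that binds all FGF receptors, fell most in both, from 804 ± 77.5 to 6.08 ± 0.597 normalized counts after DON (log2 fold change -6.83, adjusted p = 2.73e-11, limma) and from 764 ± 76.4 to 36.3 ± 5.41 without Gln (log2 fold change -4.37). *Fgf2* fell with log2 fold changes of -3.45 and -2.18. *Gas6*, the Axl ligand, fell as well, with -3.20 after DON and -2.07 without Gln. *Pros1*, which encodes a TAM ligand counted in this list but is not taken here as an Axl ligand, had -2.27 and -2.66. *Hgf*, the ligand of Met, had 0 reads in all 9 cultures. Among PDGF genes, *Pdgfb* fell by 1.87 after DON and had a log2 fold change of 0.11 without Gln (adjusted p = 0.38), and *Pdgfa* fell by 0.34 after DON and rose by 0.53 without Gln. *Efnb2*, the ligand of Ephb4, rose by 0.23 after DON and by 1.101 without Gln. *Fgf9* had 26, 28 and 40 reads in the Gln-free cultures and at most 6 in any control or DON culture. *Mst1*, which encodes the ligand of Mst1r, had 20, 12 and 24 reads after DON and 3 to 6 in control cells (log2 fold change 1.80, limma adjusted p = 0.0185). Compared directly, DON cells had 2 of 18 ligands above and 15 below the Gln-free level (median -0.998). Of all genes, 31.0% were above and 32.3% below it. *Efna4*, an ephrin-A, was higher by 0.56 and had fallen in both, with log2 fold changes of -1.096 and -1.62 against control.

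The proteases that activate HGF and MSP, with their inhibitors, were lower in 6 of 6 tested genes after DON (median -1.75) and in 5 of 6 without Gln (median -0.58). Of all genes tested, 34.7% were lower after DON and 34.9% without Gln. *Tmprss2*, a membrane serine protease, fell most, with log2 fold changes of -3.17 after DON and -2.15 without Gln. *Plau* (urokinase) differed by -2.14 between DON and Gln-free cells. Of 9 co-receptors of FGFRs and MET, 8 fell after DON (median -1.20) and 6 without Gln (median -1.23), and 0 rose in either. *Itgb4*, integrin beta 4, fell from 7389 ± 967 to 813 ± 113 normalized counts after DON (log2 fold change -3.18, adjusted p = 5.93e-11, limma) and with a log2 fold change of -1.96 without Gln. *Sdc4*, a heparan sulfate proteoglycan, differed by -1.40 between DON and Gln-free cells. *Klb*, the co-receptor of endocrine FGFs, differed by 1.67, with 14 to 28 reads per DON culture, 2 to 9 per Gln-free culture and 10 to 48 per control culture.

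Of 19 adaptors and proximal effectors, 5 rose and 7 fell after DON (median -0.06), and 7 rose and 5 fell without Gln (median 0.03). Of all genes tested, 33.3% rose and 34.7% fell after DON, and 34.5% rose and 34.9% fell without Gln. The adaptor counts lay near these shares. *Gab2*, a docking protein, rose by 1.45 and *Shc1*, an adaptor, fell by 1.22 after DON, while without Gln the exchange factor *Sos2* rose by 1.57 and the PI3K subunit *Pik3r2* fell by 1.45. Directly compared, *Stat3*, a transcription factor, differed by -1.08 between DON and Gln-free cells and *Frs3*, an FGFR adaptor, by 1.44. Of 18 negative regulators of RTKs, 4 rose and 13 fell after DON (median -1.17), and 7 rose and 7 fell without Gln (median 0.00). *Cblc*, a ubiquitin ligase gene, had a log2 fold change of -3.34 under each treatment, and the adaptor *Grb10* rose by 1.34 after DON and 1.39 without Gln. *Ptprb*, a receptor phosphatase, differed by -2.14 between DON and Gln-free cells, and *Sh2b3*, an adaptor, by 0.98.

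Among the 44 other RTK genes outside the ErbB family, 25 could be tested in each culture comparison. After DON 3 rose and 15 fell (median -0.81), and without Gln 7 rose and 13 fell (median -0.58). The shares of all genes that rose and fell were 33.3% and 34.7% after DON, and 34.5% and 34.9% without Gln. *Fgfr4* fell most in both, from 158 ± 13.7 to 7.44 ± 5.04 normalized counts after DON and from 150 ± 14.5 to 5.45 ± 3.06 without Gln. *Ddr2*, a collagen receptor, had 24, 34 and 20 reads after DON and 0, 2 and 2 in control cells. *Styk1* rose most without Gln, by 1.44. *Ror1*, a Wnt receptor, differed by -2.59 between DON and Gln-free cells, and *Ret*, the GDNF-family receptor, by 1.48.

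**Figure D3:**
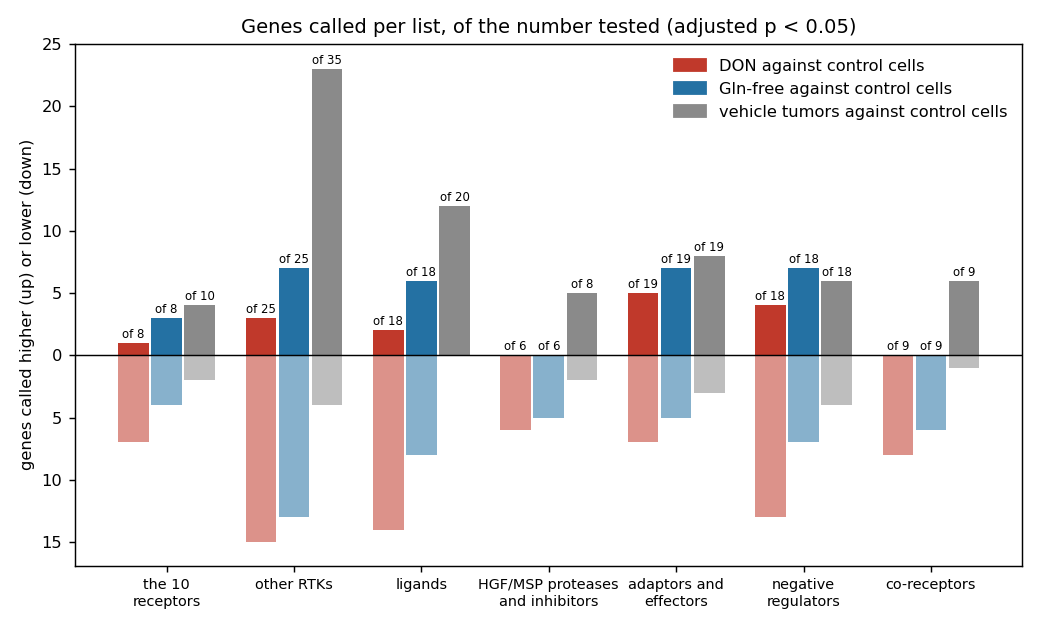
Number of genes called higher (up) and lower (down) in each list, with the number tested above each bar, for DON, Gln withdrawal and vehicle tumors against control cells (limma, adjusted p under 0.05). Ligands were lower in 14 of 18 after DON and higher in 12 of 20 in vehicle tumors, and the other RTKs were higher in 23 of 35 in vehicle tumors. Of all genes tested, 68.1% passed after DON, 69.4% without Gln and 59.7% in vehicle tumors. Genes at or near 0 in control cells could only be called higher in the tumors.

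To set tumor levels against culture levels, reads of the 3 vehicle tumors and 3 control cultures were scaled together. Of the 10 receptors, 4 were higher and 2 lower in the tumors, where 59.7% of all 15009 genes tested passed the threshold, 33.0% as higher and 26.7% as lower (limma). The 4 higher receptors were the PDGF and FGF receptors. The filter used the mean over tumors and cultures together. Genes at or near 0 in control cells therefore entered through the tumors and could only be called higher. Among the genes tested, 2 of 10 receptors (*Fgfr2* and *Pdgfrb*), 4 of 35 other RTKs and 1 of 20 ligands had 0 reads in control cells. In a bulk tumor, fewer cells of a type and less RNA per cell cannot be told apart, and growth in the mouse cannot be told apart from the separate preparation and counting of the 2 sets. Low counts (1 to 20 reads) were even numbers for 69.6% to 72.7% of genes in the cultures and for 41.9% to 46.5% in the tumors. The median of all genes was 0.09 on the log2 scale, and it was -0.14 under quantile normalization and 0.34 in RPM, so small differences depend on the scaling.

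*Pdgfrb* (ENSMUSG00000024620, chromosome 18 from 61045150 to 61085061), the receptor of pericytes and fibroblasts, had 1112, 1145 and 719 reads in the vehicle tumors and 0 in each control culture. That is at least 520.0-fold higher in RPM, against the 3 reads per library that a count of 0 allows. *Fgfr2* (ENSMUSG00000030849, chromosome 7 from 130162451 to 133123350) had 115, 137 and 41 reads, at least 50.9-fold higher by the same measure. Its annotated span of 2960.9 kb holds 69 other genes, some of which were also higher in the vehicle tumors, such as *Cpxm2* (1091 reads over the 3 tumors, 0 over the control cultures), *Chst15* (450 and 12) and *Dmbt1* (18558 and 413), and others lower, such as *Bub3* (5298 and 14673). Whether *Fgfr2* shares reads with them was not tested. These bounds cover counting error only, and they take a read as the same unit in cultures and tumors.

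*Fgfr1* had 1136, 2019 and 1077 normalized counts in the vehicle tumors against 54.8, 94.7 and 68.6 in culture (log2 fold change 4.23, standard error 0.279, limma adjusted p = 1.11e-06). *Pdgfra* had 763, 1269 and 684 in the tumors against 466, 517 and 382 in culture (log2 fold change 0.95, standard error 0.229, limma adjusted p = 0.00474). Both kept their call in all 15 alternatives, and every tumor lay above every culture. Summed fibroblast markers were 2208 to 4434 RPM in the vehicle tumors against 0.734 to 0.922 in control cells, and pericyte and smooth muscle markers 132 to 187 against 1.04 to 1.51. Endothelial markers were 195 to 231 against 7.04 to 7.05. The part of these cells in the receptor levels was not tested. *Pdgfra*, unlike *Pdgfrb*, had 442 to 702 reads in each control culture, where those lists are near 0.

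*Epha2* was lower in the vehicle tumors, with 6473, 8786 and 6887 normalized counts against 11444, 12042 and 10742 in control cells (log2 fold change -0.64, standard error 0.138, adjusted p = 0.00247, limma), and ranged from -0.77 to -0.33 over the alternatives with the call kept. *Ephb4* was lower by a smaller step (log2 fold change -0.30, limma adjusted p = 0.044), and this call was lost in 9 of 15 alternatives. Among them were RPM (-0.07, limma adjusted p = 0.614) and leaving out either control culture 1 or 2 or any vehicle tumor. Of the fits without a library the highest adjusted p was 0.14 (limma). *Axl* had 13516, 16381 and 18172 normalized counts in the tumors and 13348, 14157 and 12767 in control cells (0.25, 95% interval -0.06 to 0.55, adjusted p = 0.147, limma). It passed as higher under quantile normalization (0.58), in RPM (0.48) and without vehicle tumor 1 (0.37, limma adjusted p = 0.0367). *Ddr1*, *Met* and *Mst1r* had log2 fold changes of -0.19, -0.03 and -0.07, with upper 95% limits of 0.12, 0.41 and 0.31, and their sign turned under both scaling alternatives.

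Per gene length, *Axl* led in vehicle tumors (159 ± 19.96 RPKM), followed by *Epha2* (80.0 ± 11.1 RPKM), *Ddr1* (49.7 ± 6.92 RPKM) and *Ephb4* (31.8 ± 2.45 RPKM), with no overlap between neighbors. *Met*, *Fgfr1*, *Pdgfrb*, *Mst1r* and *Pdgfra* followed at 13.2 to 5.83 RPKM with overlapping neighbors, and *Fgfr2* came last (1.09 ± 0.542 RPKM). Of the ligands, 12 of 20 were higher in vehicle tumors and 0 lower (median 0.71, all genes 0.09). For this and the lists below, 33.0% of all genes tested were higher and 26.7% lower. *Gas6* rose by 2.92, and *Hgf* had 18, 42 and 10 reads, at least 12.1-fold above control cells. *Hpn*, a hepsin gene among the 8 tested HGF and MSP proteases and inhibitors (5 higher, 2 lower, median 0.99), had 33, 56 and 60 reads against 0, at least 26.1-fold. Co-receptors were higher in 6 and lower in 1 of 9 (median 0.61), led by *Plxnb1* (1.70) with *Plxnb2* (-0.85) lowest. *Csf1r*, the receptor of macrophages, rose most of the 35 other RTKs tested, from 6.88 ± 1.26 to 1043 ± 142 normalized counts, with *Tyro3* lowest (-0.84). Of these 35, 23 were higher and 4 lower (median 1.15), and 4 had 0 reads in control cells, so they could only be called higher. Macrophage markers were 479.7 to 654 RPM in vehicle tumors and 118 to 144 in control cells. In control cells 7 of the 10 were at 3 reads or fewer in all 3 libraries, so that sum rests on the others. Of 19 adaptors, 8 were higher and 3 lower (median 0.19), and of 18 negative regulators 6 and 4 (median 0.02), the ends being *Gab2* (1.05) and *Shc1* (-0.64), and *Cblb* (1.58) and *Grb14* (-1.05).

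**Figure D4:**
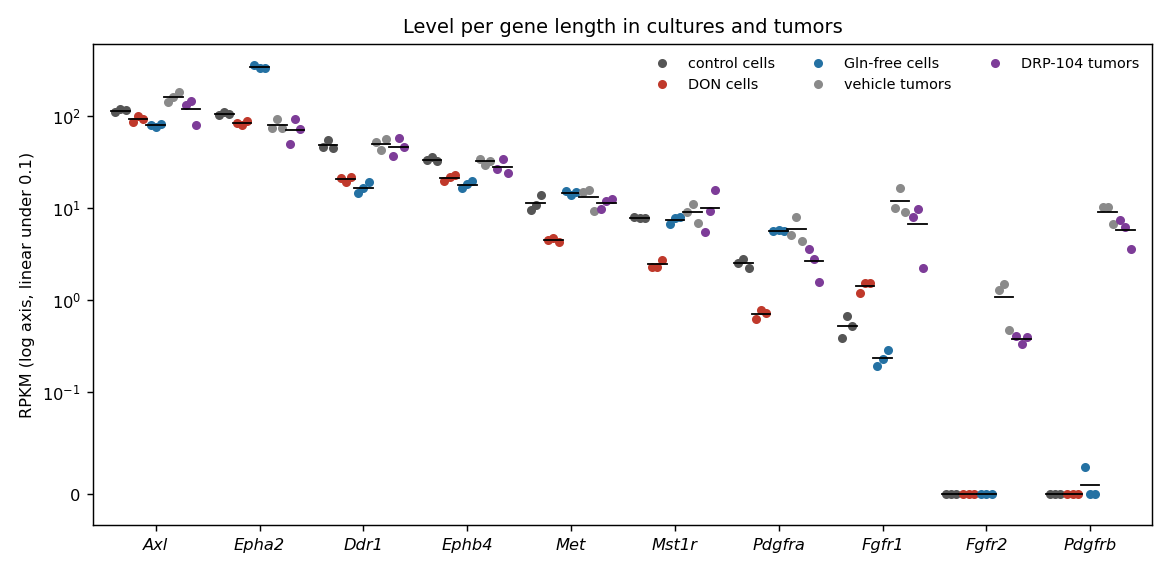
RPKM of the 10 receptors in every library (log axis, linear under 0.1), with a line at the mean of each group of 3. *Fgfr2* is at 0 in all 9 cultures, and *Pdgfrb* in 8 of them, while both are above 0.3 RPKM in every tumor, and *Axl* and *Epha2* lead in every group.

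In the tumors, 0 of 10 receptors and 0 of 15454 genes (0.0%) passed the threshold for DRP-104 against vehicle (limma). At an unadjusted p under 0.05, limma gave 775 genes, edgeR 863 and DESeq2 951. After adjustment edgeR called 0 genes and DESeq2 60. The median log2 fold change of the receptors was -0.33 (all genes -0.01). Among the receptors an unadjusted p under 0.05 was reached by *Pdgfra* and *Fgfr2*.

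On DRP-104, *Pdgfra* stood at 465, 344 and 185 normalized counts, against 605, 1007 and 546 on vehicle (log2 fold change -1.16, standard error 0.366, limma adjusted p = 0.916). *Fgfr2* stood at 35.3, 27.7 and 31.4 against 103, 127 and 39.5 (log2 fold change -1.33, standard error 0.497, limma adjusted p = 0.916). For both, all 3 DRP-104 tumors lay below all 3 vehicle tumors. The two-sided exact permutation p was 0.1, the smallest that 3 against 3 allow. The share of all genes that lay apart in this way is not given here, so the separation by itself says little. *Pdgfrb* (786, 624 and 351 against 994, 1062 and 692) and *Fgfr1* (799, 915 and 203 against 901, 1601 and 860) had log2 fold changes of -0.69 and -1.02 with overlapping groups. *Axl* had 11090, 11452 and 6123 against 10721, 12991 and 14505 (-0.46, 95% interval -1.06 to 0.14, adjusted p = 0.916, limma).

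DRP-104 tumor 3 was the lowest of the 6 tumors for 5 of the 10 receptors, *Axl*, *Pdgfra*, *Pdgfrb*, *Fgfr1* and *Ephb4*. The share of all genes that were lowest in that tumor is not given here, so this count by itself says little. Without DRP-104 tumor 3 the log2 fold change was -0.79 for *Pdgfra*, -0.36 for *Pdgfrb*, -0.33 for *Fgfr1*, -0.17 for *Axl* and -1.33 for *Fgfr2*. The lowest adjusted p of these was 0.819 (limma). The fibroblast list summed to 1778, 1341 and 1118 RPM in DRP-104 tumors 1 to 3 and to 3418, 4434 and 2208 in vehicle tumors 1 to 3, with 5 of 10 markers lower in every DRP-104 tumor. The endothelial list was also lower in every one, at 148.8, 187.3 and 139.5 RPM against 231.3, 221.5 and 195.2, again with 5 of 10 markers lower in all 3. How many of all genes were lower in every DRP-104 tumor is not given here for comparison. The pericyte and smooth muscle list overlapped, at 111.4 to 163.6 against 131.6 to 186.7 RPM. The part of these cells in the PDGF and FGF receptor values was not tested.

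The groups also overlapped for the other receptors. *Met* had 1292, 1525 and 1547 normalized counts against 1835, 2018 and 1175 (-0.17), *Epha2* 3767, 6704 and 5122 against 5134, 6968 and 5497 (-0.20), *Ddr1* 2762, 4158 and 3202 against 3627, 3114 and 4042 (-0.10) and *Ephb4* 2239, 2753 and 1897 against 2644, 2425 and 2673 (-0.18). Without DRP-104 tumor 3 these became -0.22, -0.21, -0.0767 and -0.0542. The 95% intervals over all 6 tumors reached from -0.73 to 0.32 for *Epha2*, the widest, and from -0.56 to 0.19 for *Ephb4*, the narrowest. *Mst1r* had 506, 809 and 1330 against 756, 981 and 611 normalized counts (0.09, 95% interval -0.70 to 0.87), and DRP-104 tumor 3 was the highest of all 6. Its log2 fold change without that tumor was -0.26. Epithelial markers summed to 9604 RPM in that tumor and 6491 to 8521 in the other 5.

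The FPKM table, whose columns could not be matched to these tumors and were used by group, gave the opposite sign for 9 of the 10 receptors. *Axl* had 186, 162 and 141 FPKM in the DRP-104 columns and 155, 121 and 147 in the vehicle columns, and *Pdgfrb* 19.4, 17.5 and 14.0 against 12.7, 15.8 and 10.5. *Epha2* (109 to 116 against 88.2 to 105 FPKM) had the lowest unadjusted p (0.0487), and its adjusted p was 0.629 (limma). *Met* alone kept its direction (-0.14). No direction of a DRP-104 effect on these receptors can therefore be given from the tumors. None of the genes in the other lists passed in the tumors either.

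**Figure D5:**
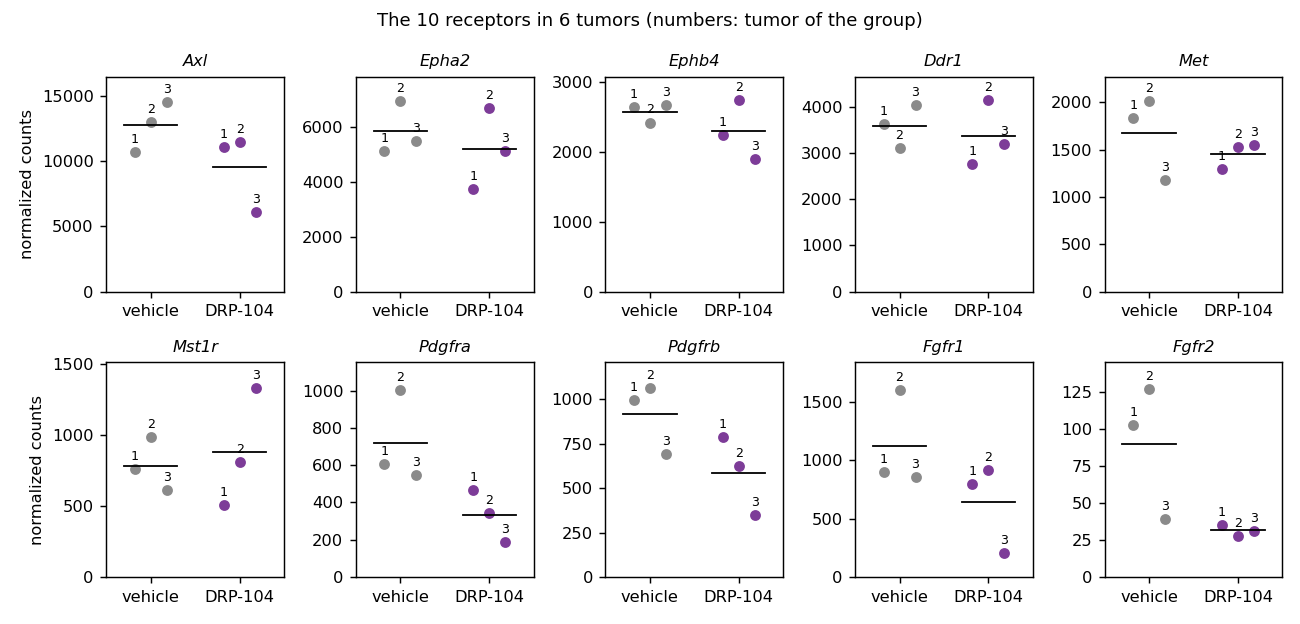
Normalized counts of the 10 receptors in the 3 vehicle and 3 DRP-104 tumors, with the tumor number at each point and a line at the group mean. DRP-104 tumor 3 is lowest for *Axl*, *Ephb4*, *Pdgfra*, *Pdgfrb* and *Fgfr1* and highest for *Mst1r*. The groups are apart only for *Pdgfra* and *Fgfr2* (two-sided exact permutation p of 0.1, the smallest that 3 against 3 allow).

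Whether DRP-104 in tumors and DON in cells had different effects was tested as the difference between the 2 log2 fold changes. It passed for 5 of 10 receptors, 4 as higher in tumors and 1 as lower, where 31.1% of 15963 genes passed, 17.9% as higher and 13.2% as lower (limma). The median of all genes was -0.02, and -0.13 under quantile normalization. The difference was 1.92 for *Mst1r* (95% interval 1.097 to 2.74, adjusted p = 0.00185), 1.29 for *Met* (0.75 to 1.84, adjusted p = 0.00171) and 1.26 for *Ddr1* (0.79 to 1.73, adjusted p = 0.000763). It was 0.62 for *Ephb4* (0.21 to 1.02, adjusted p = 0.024) and -2.34 for *Fgfr1* (-3.71 to -0.96, adjusted p = 0.0132). For *Epha2* it was 0.28 (-0.26 to 0.81) and for *Axl* -0.01 (-0.62 to 0.60), intervals that include 0 but also sizeable differences. Without DRP-104 tumor 3 these were 0.27 and 0.28, the latter with its sign turned, and those of the 5 that passed lay at 1.56 for *Mst1r*, 1.24 for *Met*, 1.29 for *Ddr1*, 0.74 for *Ephb4* and -1.65 for *Fgfr1*, with the calls kept. *Pdgfra* had 0.80 (-0.12 to 1.72, adjusted p = 0.177) and passed without DRP-104 tumor 3 (1.17, adjusted p = 0.0163). *Fgfr2* and *Pdgfrb* have no reads in DON and control cells, so their difference is the tumor effect alone. All of these differences use the normalized tumor counts, and the FPKM table, in which the tumor effect of 9 receptors had the opposite sign, was not fitted for them. At a threshold of 0.01, 3 receptors remained, *Mst1r*, *Met* and *Ddr1*. Without control culture 1 or 2, DON culture 1 or vehicle tumor 2, *Ephb4* did not pass (highest adjusted p 0.0672). Agent, dose and time differ between the 2 settings and cannot be told apart from growth in the mouse. Of the other lists, ligands were higher in 11 and lower in 1 of 21 (median 1.07, all genes -0.02), negative regulators in 10 and 3 of 18 (median 0.85), co-receptors in 6 and 0 of 9 (median 0.93), proteases and inhibitors in 6 and 0 of 8 (median 1.69), other RTKs in 11 and 1 of 37 (median 0.41) and adaptors in 3 and 4 of 19 (median -0.12). Epithelial markers were higher in 7 and lower in 0 of 9 (median 2.19), and their part in the receptor differences was not tested.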

How the data were processed

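Bulk RNA-seq was analyzed in 15 libraries, 5 groups of 3. Part of the genotype of the line is not reported here. RNA was isolated with TRIzol and a PureLink column. Novogene sequenced the libraries. Per the methods of the authors, HISAT2 was the aligner and DESeq2 the differential expression tool. The submitters' processing notes also list CASAVA, STAR 2.5 and GRCm39 with no role, and the counter and the use of strand are not given in the sources used here. In each of the 3 pairwise tables the deposited signal equals whole gene counts over a size factor of the library, and is called normalized counts here. The authors' FPKM table holds tumors only, and its coordinates are GRCm38. A duplicate tumor table and 2 further FPKM tables were not used here. In both culture tables the control columns carry VEH in their names, and they were taken as the control cultures as a group. Control cultures 1 to 3 name these columns only, and their numbers were not used for pairing.

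Whole reads were recovered from the step between the low values of each library (at least 99.9946% of values whole, tolerance 0.0051), and the control libraries had the same reads in both culture tables for 55291 genes. limma 3.58.1 (eBayes with trend) in R 4.3.3 tested log2(value + 1) of genes with a mean of at least 10 within each table, which understates changes of low genes, with Benjamini-Hochberg adjustment over all genes and a threshold of 0.05. DON against Gln-free cells and tumors against cells used reads scaled by median-of-ratios factors over the libraries in the fit, with the DRP-104 effect minus the DON effect as an interaction contrast on the normalized counts. RPKM was RPM divided by the gene length in the FPKM table. Fold bounds against 0 used 3 reads per library, averaged as RPM, and cover counting error only, since reads carry no molecular identifiers. Means are given ± SD (n = 3). The receptors and gene lists were chosen with earlier results of these data known. In each other list the genes with the highest and lowest fold change that passed without overlap were named, with ligands of a mean of at least 10. *Hgf* in cells, *Fgf2*, *Gas6*, *Pdgfa*, *Pdgfb* and *Efnb2* were named with their receptors, and *Pros1* with *Gas6*. *Zan*, *Bub3*, *Cpxm2*, *Chst15* and *Dmbt1* were named as overlapping genes chosen after their values were seen. Alternatives were edgeR 4.0.16 and DESeq2 1.42.0 on recovered reads, pseudocounts of 0.5 and 5, no filter or a mean of at least 50, a threshold of 0.01, quantile normalization, RPM, the FPKM table (mean of at least 0.5), a replicate block and leaving out each library. The limma tests of DON against control cells, DRP-104 against vehicle and DON against Gln-free cells were run on simulated data. That simulation changed far fewer genes than passed in the cultures, so scaling and error rates at such shares were not checked. Promoters came from RefSeq, with no entry for *Fgfr1* and *Pdgfrb*. Python 3.11 with pandas 2.3.3, numpy 2.4.6, scipy 1.17.1 and matplotlib 3.10.9 handled the tables and plots.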

Additional observations from a re-analysis of the deposited data

Results flagged for a closer look

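For 5 of the 10 receptors, the log2 fold change of DRP-104 in tumors (against vehicle) differed from that of DON in cells (against control) in the normalized counts, by the test of the difference itself (limma, adjusted p under 0.05, where 31.1% of all genes passed). On the log2 scale the effect in tumors minus the effect in cells was 1.92 for *Mst1r*, 1.29 for *Met*, 1.26 for *Ddr1* and 0.62 for *Ephb4*, and it was -2.34 for *Fgfr1*. *Met*, *Ddr1* and *Mst1r* kept the call in all 18 alternatives, *Fgfr1* in 17 of 18 and *Ephb4* in 13 of 18. None of the 5 had a log2 fold change past the threshold in the tumors alone. The epithelial marker list differed in the same way, with 7 of 9 markers higher, 0 lower and a median of 2.19. Its part in the receptor differences was not tested. Without DRP-104 tumor 3 the difference was 1.56 for *Mst1r*, 1.24 for *Met*, 1.29 for *Ddr1*, 0.74 for *Ephb4* and -1.65 for *Fgfr1*. The FPKM table was not among these alternatives. In it the tumor log2 fold change was 0.14 for *Ddr1*, 0.25 for *Ephb4*, 0.505 for *Fgfr1* and -0.22 for *Mst1r*, each with the opposite sign to that from the normalized counts, and -0.14 for *Met*. Whether the calls hold with that table was not tested.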

How the results depend on the processing

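Of 858 values of single receptors under the alternatives, 789 kept their direction and their side of the threshold, 36 lost and 5 gained a call, and 28 changed sign. All calls after DON held in all 14 alternatives. Between DON and Gln-free cells, 5 receptors passed at a threshold of 0.01, and 5 to 8 when each library was left out. DESeq2 called 60 genes for DRP-104 against vehicle, where limma and edgeR called 0. For the DRP-104 effect minus the DON effect, a threshold of 0.01 left 2978 genes and 3 receptors.

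In the FPKM table the DRP-104 log2 fold change was 0.21 for *Axl*, 0.14 for *Ddr1*, 0.27 for *Epha2*, 0.25 for *Ephb4*, 0.505 for *Fgfr1*, 0.23 for *Fgfr2*, -0.22 for *Mst1r*, 0.0785 for *Pdgfra* and 0.37 for *Pdgfrb*. The cause was not tested. Leaving out each tumor gave -0.27 to 0.0299 for *Ddr1*, -0.40 to 0.011 for *Epha2* and -0.26 to 0.43 for *Mst1r*. For vehicle tumors against control cells, quantile normalization gave 0.0697 for *Ddr1*, 0.14 for *Met* and 0.0167 for *Mst1r*, RPM 0.0432, 0.20 and 0.16, and DESeq2 0.0129 for *Met*. Leaving out each library gave -0.19 to 0.21 for *Met* and -0.25 to 0.10 for *Mst1r*. The *Axl* difference between tumor and cell effects ranged from -0.17 to 0.28 without each library.

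The replicate block was fitted where both groups carry numbers. Same-numbered libraries had deviations correlated at r = -0.44, 0.05 and -0.46 for DRP-104 and vehicle tumors and -0.02, -0.01 and 0.25 for DON and Gln-free cells. Each r rests on deviations from means of 3 libraries, so it cannot tell whether same-numbered libraries were handled together. The labels give them a shared number only. With the block, 0 genes passed for DRP-104 and 9218 for DON against Gln-free cells (8549 without it), with the same 8 receptors. The planned block fits for comparisons with control cultures were not run, because the numbers in the names of those columns could not be matched to single control samples in the labels. With 3 tumors a group, at 16.3 to 20.7 M reads counted in genes each, the spread between tumors sets the precision of the DRP-104 values.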
